A study of Mus musculus with 21 samples.

Results

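The first passage (P1) of this series set N202 mammary tumour cells that had grown on brain tissue beside the same cells grown on 3 other tissues. It comprised 6 of the 21 arrays, which were chosen by the tissue and passage in their labels: 3 arrays of cells from brain and 1 array each of cells from bone marrow, lung and breast. All groups were the clone N202.1A of a tumour from a mouse that carries rat HER-2/neu under the MMTV promoter, made to express the fusion protein H2B-GFP. For each adapted line, spheroids spent 21 days on minced tissue that had been revascularised in a dorsal skinfold chamber of a female nude mouse (donors were C57BL/6 for brain, bone marrow and lung; the breast donor is not given in the sources used here). The cells were then returned to culture under G418 selection, sorted for GFP and expanded before RNA was taken, so the values describe cultured cells after their stay on tissue. Of the 3 brain arrays, 2 came from separate cultures of 1 adapted line (the first brain line; the second of these is labelled a technical replicate) and 1 from a second adaptation experiment (the second brain line). The animals behind each line are not stated in the sources used here, and each of the other tissues was represented by 1 line. The 2 arrays of the parental cells (P0), grown in culture without a stay on tissue, served as the untreated background.

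A disseminated tumour cell that lodges in a distant organ meets nutrients, ions, matrix and signals that differ from those of its tissue of origin. Brain is served by a barrier that restricts the entry of solutes, and its extracellular fluid holds less of many amino acids than plasma does. Cells meet a shortage of amino acids through the kinase Gcn2 and the transcription factor Atf4, which raises genes of amino acid synthesis, uptake and tRNA charging, and they meet a shortage of sterols through the Srebp factors, which raise genes of cholesterol and lipid synthesis.

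Values are log2 levels per gene, so a difference of 1 is 2-fold. The arrays hold no counts, and it is their small number that limits the precision. The lowest values of an array (its 5th percentile) stood at 2.76 in the second array of the first brain line and at 2.71 in the lung array, against 2.13 to 2.40 in the other first-passage arrays, and the part of this in the results was not tested beyond leaving both arrays out. Of 16 markers of luminal mammary epithelium, 12 lay above 7.22, the lowest value that passed the filter described under processing and taken here as the detection limit, in all 6 arrays. The count above that limit in any of the 6 arrays was 1 of 8 for basal mammary epithelium, 1 of 12 for neurons, 2 of 8 for astrocytes, 2 of 8 for oligodendrocytes, 1 of 12 for microglia and macrophages, 2 of 13 for blood cells, 2 of 10 for lung epithelium, and 0 of 8, 0 of 10 and 0 of 5 for endothelium, fibroblasts and adipocytes. The summed level of the blood cell list was 10.2 to 12 (log2) in brain and 8.98 to 10.3 in the other tissues, and its brightest member was Ltf, a milk and neutrophil protein, at 11.78, 11.90 and 9.88 in brain, 9.9995, 8.24 and 7.89 elsewhere and 8.47 and 10.67 in the parental cells. The leukocyte marker Ptprc stayed between 3.74 and 4.00 in all 6 arrays, under the limit. The neuron list summed to 8.83 to 9.19 in brain and 8.9 to 9.48 in the others. The list of microglia and macrophages summed to 8.28 to 9.12 in brain and 8.2 to 8.41 in the others, and its member Cd68, a lysosomal protein, was at 8.28, 7.62 and 6.82 in brain, 6.22, 6.36 and 6.86 elsewhere and 6.03 and 5.99 in the parental cells. The part of these markers in the results was not tested. Bulk RNA cannot separate fewer cells of a type from less RNA per cell. Mouse Erbb2, the gene homologous to the rat transgene, was at 9.56 and 9.46 in the first brain line, 9.01 in the second, 9.83, 10.29 and 9.78 in bone marrow, lung and breast, and 10.69 and 10.71 in the parental arrays, and no comparison below called it.

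Whole profiles placed the brain lines apart from the other tissues and also apart from each other. Of 7259 genes, 33 differed at least 2-fold between the 2 cultures of the first brain line, whereas 768 and 839 did so between these cultures and the second brain line. The second brain line stood 2-fold or more from bone marrow in 590 genes, from lung in 665 and from breast in 555. The other tissues were nearer to one another, with 57 such genes between bone marrow and lung, 196 between bone marrow and breast and 314 between lung and breast. Against the mean of the parental arrays, 188 genes were at least 2-fold higher and 265 lower in the first culture of the first brain line, 289 higher and 197 lower in the second brain line, 37 higher and 53 lower in bone marrow, 54 higher and 132 lower in lung, and 91 higher and 147 lower in breast. The parental arrays themselves differed 2-fold in 178 genes, more than bone marrow differed from lung.

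**Figure D1:**
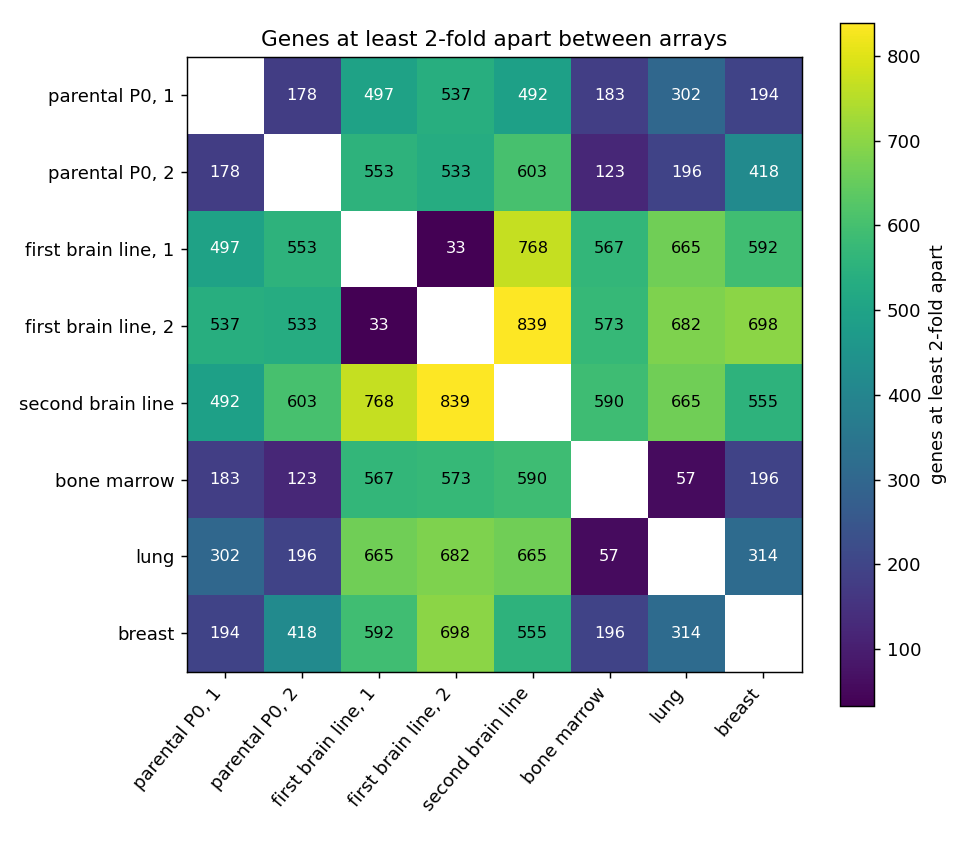
Number of genes, of 7259, that lay at least 2-fold apart between any 2 of the 6 first-passage arrays and the 2 parental arrays (rows and columns are arrays, colour and figure give the count). The 2 cultures of the first brain line differ in 33 genes and either of them differs from the second brain line in 768 or 839, more than from any other array.

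The question of the comparison was whether growth on brain left a mark that the other tissues did not. With each adapted line counted once (2 brain lines against 3 tissues), limma called 0 genes at an adjusted p (Benjamini-Hochberg) under 0.05, while 841 genes had an unadjusted p under that threshold and the lowest adjusted p was 0.11. Counting the 6 arrays as separate samples called 3 genes, 2 of them higher and 1 lower in brain, and without the second brain line, which leaves a lone brain line, 63 were called. A variance trend with robust estimation called 1 gene, Hsd11b1 (adjusted p = 0.044). When the spread between cultures was used in place of that between lines and tissues, in a fit of 16 group means, the mean of both brain lines differed from the other tissues in 251 genes upward and 214 downward.

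Without a test, 945 genes (13% of all) had their 3 brain arrays above the 3 other arrays and 820 (11.3%) had them below. The 2 cultures of the first line are close to each other, so this amounts to an order of 2 lines and 3 tissues. Such an order separates many genes without any effect of brain, and the share expected from it was not estimated. The counts are therefore a description and not a pattern of brain. The gap between the nearest arrays of both sides reached 2-fold in 15 genes above (0.207%) and 11 below (0.152%). These 26 genes are described here as the clearest separations, with limma's test of each brain line against the other tissues under the spread between cultures. In 9 of the 15 genes all 3 other tissues lay under the limit of 7.22, and in 7 of the 11 all 3 brain arrays did. Such a gene passed the filter only through a group where it is high, so the size of its difference is uncertain and its p is given as a description. The parental level was nearer to brain than to the other tissues in 7 of the 15 genes and in 6 of the 11, so that part of these separations lay in the cells of the other tissues. Over all separated genes the parental level was nearer to brain in 278 of 945 and in 221 of 820, against 2618 of all 7259 genes.

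**Figure D2:**
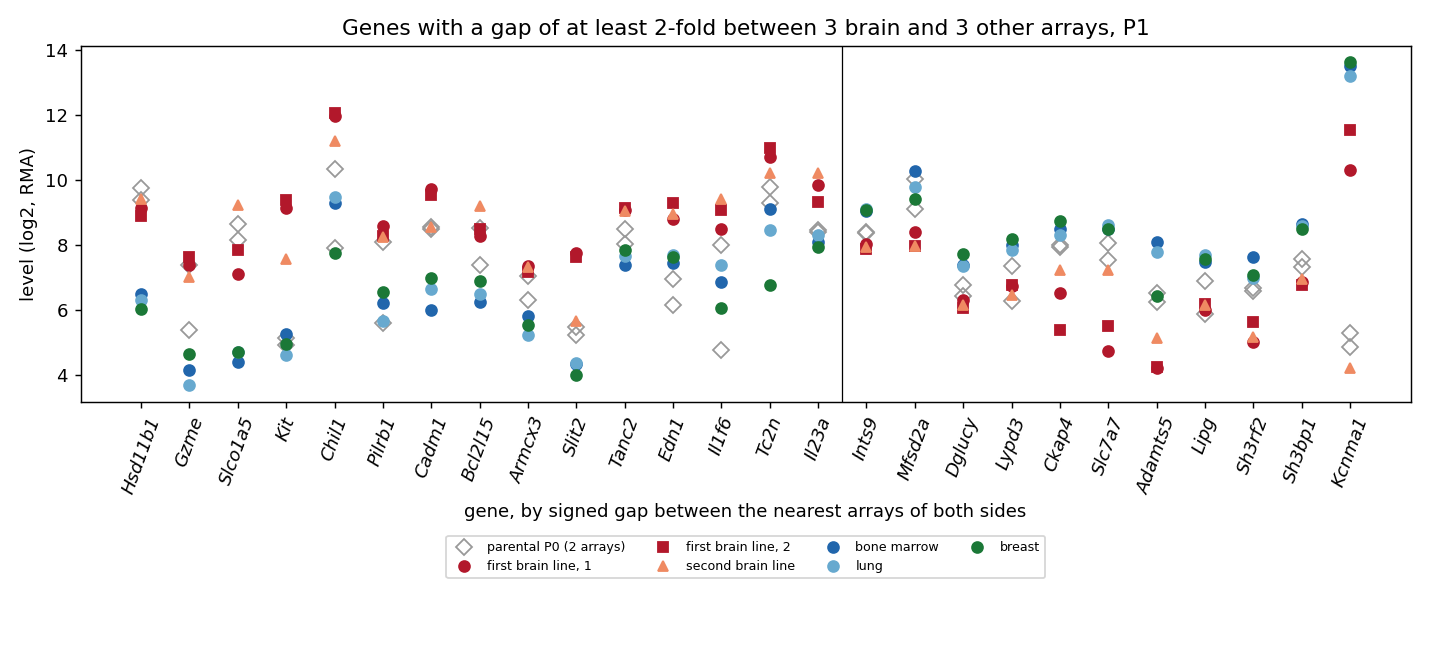
Level (log2, RMA) of the 26 genes whose 3 brain arrays lie at least 2-fold above (left of the line) or below (right) the 3 other arrays of P1, with 1 point for each array and open diamonds for the 2 parental arrays. The parental diamonds lie with the brain arrays in Hsd11b1 and Slco1a5, with the other tissues in Kit and far below both in Kcnma1 outside the second brain line.

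Among the genes above in brain was Hsd11b1, the reductase that makes active corticosterone from its inert 11-keto form. Its level was 9.14 and 8.90 in the first brain line and 9.41 in the second, against 6.48 in bone marrow, 6.32 in lung and 6.03 in breast. The parental arrays were at 9.39 and 9.77, so brain kept about the parental level and the other tissues stood below it and under the limit. The other tissues were also under the limit in Slco1a5, Cadm1, Kit, Slit2 and Gzme. For Hsd11b1 the first brain line exceeded the other tissues by 2.74 (SE 0.29, adjusted p = 0.001, limma) and the second by 3.14 (SE 0.36, adjusted p = 0.0046). Slco1a5, an organic anion carrier of the Oatp family found at the blood-brain barrier, behaved alike: 7.09, 7.83 and 9.23 in brain, 4.39, 4.70 and 4.70 in the other tissues and 8.66 and 8.14 in the parental arrays. Its differences, of uncertain size because the other tissues were under the limit, were 2.87 (adjusted p = 0.001) and 4.63 (adjusted p = 0.0018). Cadm1, a cell adhesion molecule of epithelia and synapses, had 9.71, 9.54 and 8.57 in brain, 5.9993, 6.63 and 6.97 in the other tissues and 8.55 and 8.48 in the parental arrays, with differences of 3.10 (adjusted p = 0.0001) and 2.04 (adjusted p = 0.0081).

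Kit, the receptor of stem cell factor, took the other form, in that brain stood above the parental cells. It was at 9.15 and 9.39 in the first brain line and 7.56 in the second, at 5.27, 4.60 and 4.95 in the other tissues, and at 4.91 and 5.12 in the parental arrays. The difference from the other tissues, which like the parental cells were under the limit, was 4.33 (SE 0.21, adjusted p = 1.4e-05) in the first line and 2.62 (SE 0.27, adjusted p = 0.0027) in the second, and the second line was lower than the first by -1.71 (adjusted p = 0.011), a difference that did not pass without the second culture of the first line. Slit2, a secreted guidance cue for axons, reached 7.75 and 7.63 in the first line and 5.66 in the second, against 4.34, 4.37 and 3.98 in the other tissues. Its difference was 3.46 (adjusted p = 0.00035) in the first line and 1.43 (adjusted p = 0.096) in the second. The second line was under the limit too, so the latter difference and the gap of Slit2 lie between values under the limit. Edn1, the vasoconstrictor endothelin 1, was at 8.80, 9.31 and 8.95 in brain and at 7.44, 7.67 and 7.63 elsewhere, with parental values of 6.16 and 6.95. Its difference of 1.47 in the first line (adjusted p = 0.023) did not pass without either culture of that line, and that of 1.36 in the second had an adjusted p of 0.12. Bcl2, an inhibitor of apoptosis, had a gap under 2-fold and so stands outside the 26, with 9.54, 9.68 and 9.82 against 8.54, 8.61 and 8.05, and both lines passed the test (1.21, adjusted p = 0.0024, and 1.42, adjusted p = 0.0095).

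Further genes above in brain encode secreted or immune proteins. Chil1, a chitinase-like glycoprotein also known from astrocytes and macrophages, had 11.97, 12.07 and 11.21 in brain and 9.30, 9.47 and 7.76 elsewhere. Its parental arrays were far apart, at 7.89 and 10.33, and the difference passed in the first line (3.18, adjusted p = 0.012, though not without either culture of it) and missed in the second (2.37, adjusted p = 0.13). Gzme, a granzyme of the cytotoxic lymphocyte cluster, had 7.37, 7.62 and 7.02 in brain, 4.16, 3.67 and 4.62 elsewhere and 7.38 and 5.37 in the parental arrays. It is uncertain, because the granzyme genes beside it are close in sequence and can share probes. Its difference was 3.35 in the first line (adjusted p = 0.005, lost without the second culture) and 2.87 in the second (adjusted p = 0.054). The second line was under the limit like the other tissues, so the latter difference and the gap of Gzme lie between values under the limit. Il23a, a subunit of interleukin 23, stood at 9.83, 9.34 and 10.21 in brain and at 8.10, 8.31 and 7.95 elsewhere. The remaining 6 of the 15 genes were Pilrb1, Bcl2l15, Armcx3, Tanc2, Il1f6 and Tc2n. Of these 15, Il1f6, Tc2n and Il23a lay outside the 12 widest gaps and are named after their values were seen. The parental arrays of Pilrb1 (5.59 and 8.08) and of Il1f6 (4.75 and 7.99) lay farther apart than brain and the other tissues did at their nearest arrays.

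The genes below in brain were led by Kcnma1, the pore subunit of the large-conductance calcium-activated potassium channel. It was at 13.50, 13.19 and 13.64 in bone marrow, lung and breast, at 10.31 and 11.55 in the first brain line and at 4.21 in the second, and at 5.27 and 4.84 in the parental cells. The second brain line thus stayed near the parental level, which lies under the detection limit, while the first line and, further, the other tissues stood far above it. The difference from the other tissues was -2.52 in the first line (SE 0.52, adjusted p = 0.019) and -9.23 in the second (SE 0.65, adjusted p = 0.001), and the size of the latter is uncertain because 1 side is under the limit. The first of these did not pass without the first culture of that line, nor with the median of chromosome 14 subtracted.

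In Adamts5, Slc7a7, Sh3bp1 and Sh3rf2 the arrays of both brain lines lay under the limit, and in Ckap4 those of the first line did. The sizes that follow are therefore uncertain in the same way. Adamts5, a protease that cleaves the matrix proteoglycan aggrecan, was at 4.21, 4.24 and 5.12 in brain and at 8.08, 7.78 and 6.42 elsewhere, with 6.23 and 6.51 in the parental arrays between them. Both lines passed (-3.21, adjusted p = 0.00012, and -2.31, adjusted p = 0.0067). Slc7a7, a subunit of a carrier that exports cationic amino acids, was at 4.72 and 5.49 in the first brain line and 7.22 in the second, against 8.49, 8.62 and 8.49 elsewhere. It passed in the first line (-3.43, adjusted p = 0.00014) and missed in the second (-1.32, adjusted p = 0.074). Ckap4, a membrane protein of the rough endoplasmic reticulum, was at 6.52, 5.36 and 7.23 against 8.48, 8.32 and 8.74 (-2.57, adjusted p = 0.002, in the first line and -1.28, adjusted p = 0.13, in the second). Sh3bp1, a GTPase-activating protein for Rac, was at 6.86, 6.76 and 6.94 against 8.64, 8.60 and 8.48, with little spread on either side. Its differences were -1.76 (adjusted p = 0.0028) and -1.64 (adjusted p = 0.029), the latter lost without either culture of the first line. Sh3rf2, a ubiquitin ligase, was at 5.02, 5.61 and 5.16 against 7.63, 6.98 and 7.07, and both lines passed (-1.91, adjusted p = 0.0015, and -2.07, adjusted p = 0.0086). The remaining 5 genes with such a gap were Lipg, an endothelial-type lipase, Lypd3, Dglucy, Mfsd2a and Ints9. Mfsd2a, a lipid carrier that is also known from the blood-brain barrier, was at 8.39, 7.96 and 7.97 in brain, 10.29, 9.79 and 9.43 elsewhere and 9.11 and 10.04 in the parental cells, so that brain was the side that departed from them.

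Genes below in brain were unevenly placed on the chromosomes. On chromosome 14, 131 of 244 genes had all brain arrays below the others, 53.7% against 11.3% of all genes, and 4 had them above. The median difference of its genes from the parental arrays, less that of all genes, was -0.33 and -0.26 in the first brain line and -0.074 in the second, and 0.28, 0.31 and 0.27 in bone marrow, lung and breast. All 6 arrays thus took part in that separation, with the other tissues above the parental cells and the first brain line below. On chromosome 4, 136 of 444 genes (30.6%) lay below in brain, and its median was -0.57 in both cultures of the first line, 0.038 in the second line and 0.046 to 0.091 in the other tissues. Chromosomes 3 and 12 had medians of -0.30 and -0.24, and of -0.22 and -0.18, in the first brain line, and medians of -0.0043 to 0.17 in the other 4 arrays. Of the genes named here, Kcnma1, Slc7a7, Gzme, Dnajc3, Psme1, Psme2 and Ints9 lie on chromosome 14. The part of these shifts in the gene calls was not tested beyond subtracting each chromosome's median, after which 1609 genes in place of 1765 were separated.

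**Figure D3:**
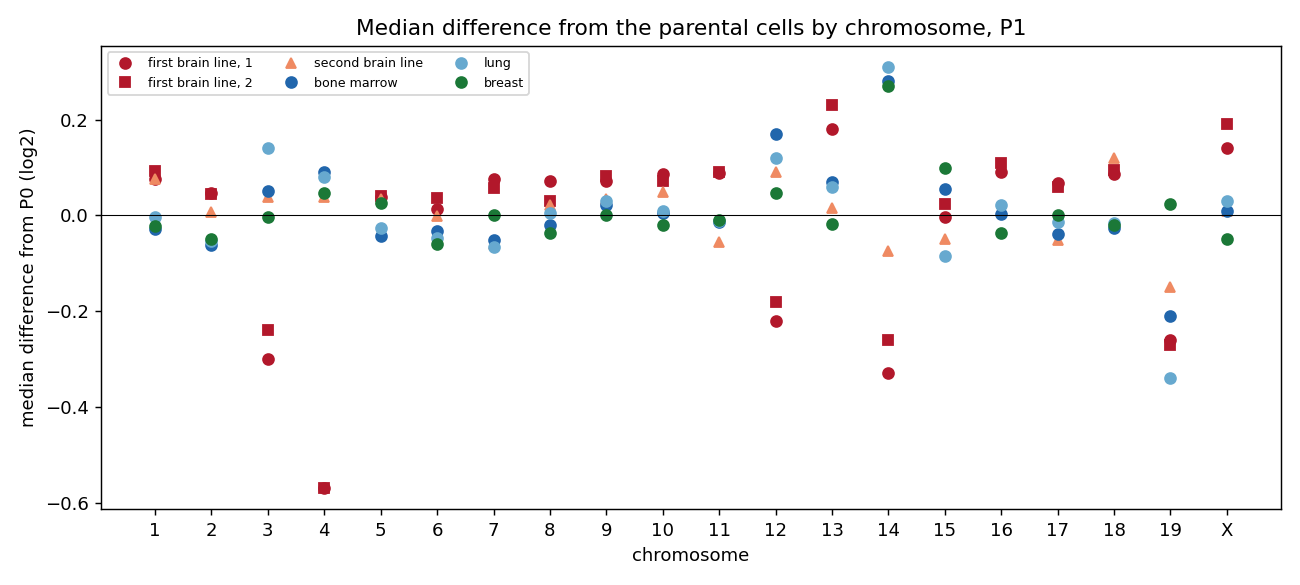
Median difference from the mean of the parental arrays over the genes of each chromosome, less the median of all genes (log2), with 1 point for each first-passage array. On chromosome 14 the 3 brain arrays lie below 0 and the 3 other arrays at 0.27 to 0.31, and on chromosome 4 only the 2 cultures of the first brain line lie low, at -0.57.

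The first brain line differed from the other tissues in 329 genes upward (4.53%) and 512 downward (7.05%). In 101 of the 329 the other tissues all lay under the limit of 7.22, and in 222 of the 512 both arrays of the first line did. Among its largest increases were genes that the second brain line had at about the level of the other tissues. Gpx2, a glutathione peroxidase of epithelia, was at 11.88 and 11.28 in the first line, 5.51 in the second and 4.99, 5.30 and 6.11 elsewhere, a difference of 6.12 (SE 0.22, adjusted p = 4.6e-06). Gpx2, Tmem47, Akr1c18, Slc6a14 and Cers6 were above the limit in the first line alone among the 6 arrays, through which they passed the filter, so their differences have an uncertain size and their p-values are a description. Tmem47, a protein of cell junctions, had 9.62 and 9.68 against 4.10 in the second line (5.25, adjusted p = 1.3e-05), and Akr1c18, which inactivates progesterone, had 8.67 and 8.65 against 3.80 (4.64, adjusted p = 0.00068). Slc6a14, a carrier of neutral and cationic amino acids, was at 7.92 and 8.0045 in the first line and 3.53 in the second (3.64, adjusted p = 0.00022). Cers6, a ceramide synthase, had 8.58 and 8.41 in the first line and 3.61 in the second. Among the largest decreases were those of Timp3, an inhibitor of metalloproteinases, at 5.10 and 5.50 against 11.71 in the second line (-5.20, adjusted p = 2.3e-05), in Tns4, a focal adhesion protein (-5.16, adjusted p = 1.3e-05), in Hspb8, a small heat shock protein (-3.93, adjusted p = 1.3e-05), and in Lgals1, galectin-1 (-3.92, adjusted p = 0.00013). The first line was under the limit in Timp3, Tns4 and Hspb8, as in Psmb8 and Tap2 below, and the size of these differences is uncertain too. Col8a1, a short-chain collagen, was at 5.58 and 6.08 in the first line, 10.38 in the second and 10.24, 9.97 and 10.54 elsewhere. Without the first or the second culture of this line 231 and 203 genes were called in all, with chromosome medians subtracted 268 rose and 254 fell, and without the filter on dim probe sets 210 genes were called.

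Genes of antigen presentation and the interferon response were lower in the first line. Of 13 members above the filter, 8 fell and 0 rose (61.5% against 7.05% of all genes), the median difference was -0.79 against 0.01 over all genes, and the second line called 0 of them with a median of -0.05. Psmb8, a catalytic subunit of the immunoproteasome, was at 5.63 and 4.30 in the first line, at 8.08 in the second and at 7.88, 8.18 and 7.98 elsewhere (-3.04, SE 0.33, adjusted p = 0.001). Tap2, which carries peptides to class I molecules, was at 6.29 and 5.78 against 7.498 in the second line (-1.67, adjusted p = 0.0021). The proteasome activators Psme1 (-1.08, adjusted p = 0.0032) and Psme2 (-1.32, adjusted p = 0.0078) fell as well, and neither passed with the median of chromosome 14 subtracted. The count of 8 became 4 and 5 without the first and the second culture of the line, 5 without lung, and 3 when both arrays with a raised floor, the second culture and lung, were left out.

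The second brain line differed from the other tissues in 146 genes upward (2.01%) and 62 downward (0.854%). With equal array medians these were 153 and 33. In 50 of the 146 the other tissues all lay under the limit (of the genes named here, also Ms4a6d, Ecrg4, Aldh1l2, Atf3 and Sema7a), and in 30 of the 62 the second line did (also Pglyrp3, Idi1 and Hmgcs1), which leaves these sizes uncertain. Among its largest increases were Tslp, an epithelial cytokine, at 9.15 against 4.19 and 4.24 in the first line and 3.20 to 4.21 elsewhere (5.49, adjusted p = 0.017), above the limit in this array alone so that the size is uncertain, and Ms4a6d, a tetraspan membrane protein, at 8.93 against 4.49 and 3.47 in the first line (5.03, adjusted p = 0.0021). Ms4a6d was at 7.48 and 7.86 in the parental cells, so the second line was close to them and the other 5 arrays were below. The same held for Ecrg4, a secreted growth suppressor, at 9.64 in the second line, 8.95 and 9.45 in the parental cells and 4.70 to 6.11 in the other 5 arrays (3.92, adjusted p = 0.0024). Pglyrp3, a peptidoglycan-binding protein, was at 4.37 in the second line and at 7.68 to 8.23 in the other 5 (-3.64, adjusted p = 0.0021). Jag1, a Notch ligand, was at 10.51 in the second line, 8.47 and 8.28 in the first and 6.48, 6.62 and 7.67 elsewhere. This line is a lone array, and its spread was taken from the groups that have 2 cultures. The total of 208 was 100 without either culture of the first line, 132 without bone marrow, 138 without lung and 15 without the filter on dim probe sets.

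The second line had raised genes of the response to amino acid starvation and endoplasmic reticulum stress. Of 36 members above the filter, 16 rose (44.4% against 2.01% of all genes) and 1 fell. Their median difference from the other tissues was 1.30, against 0.04 over all genes, and in the first line it was 0.02, with 0 up and 3 down. Atf3, a stress-induced transcription factor, was at 10.25 in the second line, 7.46 and 7.35 in the first, 7.19, 7.02 and 6.92 elsewhere and 7.03 and 7.09 in the parental cells (3.21, SE 0.32, adjusted p = 0.0023). Chac1, which degrades glutathione, was at 10.07 against 7.72 and 7.08 in the first line and 7.27, 7.40 and 6.93 elsewhere (2.88, adjusted p = 0.0038). Nupr1, a small chromatin protein of stressed cells, was at 10.73 against 8.46 and 8.01 in the first line (2.66, adjusted p = 0.0021), and Asns, asparagine synthetase, at 12.50 against 10.68 and 10.60 (2.14, adjusted p = 0.014). Aldh1l2, a mitochondrial folate enzyme, was at 9.72 in the second line, 6.96 and 6.66 in the first and 5.94, 6.26 and 5.20 elsewhere (3.92, adjusted p = 0.0021). In each of these genes the second brain line stood above the other arrays. In Aldh1l2 and Atf3 the first line also lay above the other tissues, by less. Of the 36 members, 11 (30.6% against 13% of all genes) had all brain arrays above the others and 6 (16.7% against 11.3%) had them below. The member that fell was Dnajc3, a chaperone of the endoplasmic reticulum on chromosome 14, at 7.77, 7.63 and 7.80 in brain against 9.10, 9.04 and 8.76. It was lower in both lines (-1.27, adjusted p = 0.0036, and -1.17, adjusted p = 0.036), the latter lost with equal array medians, with the median of chromosome 14 subtracted and without any 1 of the parental, first-line, bone marrow and lung arrays, the former without the second culture of the first line. The 16 rising members were 12 without either culture of the first line, 10 when both arrays with a raised floor were left out and 3 without the filter.

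Promoters of the rising stress genes held the letters of the CCAAT-enhancer and ATF response element, which Atf4 binds, more often than those of all kept genes. The choice of the members that rose used the measured values, so the share is given as a description with no test. The list itself was compiled from known genes of amino acid starvation, the response of Atf4, and of endoplasmic reticulum stress. A higher share than in all genes, or in members that did not rise, was thus partly set by how the list was made. The sequence TGATGNAA was searched on both strands in the RefSeq promoters of GRCm38.p6, a window of 250 bases before to 50 after each start. Of the 16 rising members 14 had such a window and 7 of these (50%) held the letters, against 1 of 18 (5.56%) members that did not rise and 151 of 5919 (2.55%) kept genes. These 7 were Atf3, Trib3, Asns, Chac1, Nupr1, Vldlr and Gars. The sterol response element TCACNCCAC, searched in the same way, stood in 1 of 7 falling cholesterol genes, Hmgcs1, and in 77 of 5919 kept genes (1.3%). A match is a description of letters and not a shown binding site. The 250 bases before the start of 4 of the rising genes are given, 5′ to 3′ on the strand of the gene, because these genes carry both the letters and some of the larger changes of the list, with the matching letters in capitals. In Atf3, Chac1 and Nupr1 the capitals show the reverse complement, because the element lies on the opposite strand. Counted from the start, the first capital is at -110, -193 and -110 in these genes and at -23 in Asns, where the element lies on the strand of the gene.
Atf3 (GRCm38.p6 chr1:191183334-191183583, minus strand): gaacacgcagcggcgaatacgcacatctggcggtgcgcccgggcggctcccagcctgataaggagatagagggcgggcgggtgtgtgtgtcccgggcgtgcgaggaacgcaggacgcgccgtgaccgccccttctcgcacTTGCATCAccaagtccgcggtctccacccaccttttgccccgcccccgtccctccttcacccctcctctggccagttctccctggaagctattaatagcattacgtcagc
Asns (GRCm38.p6 chr6:7693210-7693459, minus strand): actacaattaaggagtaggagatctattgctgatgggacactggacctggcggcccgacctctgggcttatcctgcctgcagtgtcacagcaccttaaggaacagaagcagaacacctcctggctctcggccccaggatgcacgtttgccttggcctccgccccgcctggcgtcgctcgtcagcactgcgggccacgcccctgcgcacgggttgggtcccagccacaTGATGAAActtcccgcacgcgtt
Chac1 (GRCm38.p6 chr2:119350992-119351241, plus strand): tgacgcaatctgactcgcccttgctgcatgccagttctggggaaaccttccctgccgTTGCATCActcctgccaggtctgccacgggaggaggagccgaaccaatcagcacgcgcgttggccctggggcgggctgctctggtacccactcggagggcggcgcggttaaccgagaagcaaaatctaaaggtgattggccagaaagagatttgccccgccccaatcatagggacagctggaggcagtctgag
Nupr1 (GRCm38.p6 chr7:126625471-126625720, minus strand): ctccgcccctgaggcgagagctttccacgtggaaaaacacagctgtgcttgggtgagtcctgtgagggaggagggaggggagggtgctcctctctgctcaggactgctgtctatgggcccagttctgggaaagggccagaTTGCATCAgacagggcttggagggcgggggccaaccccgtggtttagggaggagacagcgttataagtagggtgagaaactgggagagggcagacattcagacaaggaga

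Of 21 kept amino acid and solute carriers, 5 rose (23.8% against 2.01% of all genes) and 1 fell in the second line, with a list median of 0.088, and 5 rose (23.8% against 4.53%) and 3 fell (14.3% against 7.05%) in the first, with a median of 0.449. Slc7a11, the cystine carrier, was at 11.72 in the second line, 8.95 and 8.54 in the first and 8.06, 7.27 and 9.57 elsewhere (3.42, adjusted p = 0.0021), and Slc6a9, a glycine carrier, was at 11.55 against 8.38 and 8.17 in the first line (2.62, adjusted p = 0.0069).

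Genes of cholesterol and fatty acid synthesis were lower in the second line, with 9 of 29 members falling (31% against 0.854% of all genes), 0 rising and a median of -1.18. In the first line 1 rose, 0 fell and the median was 0.03. Idi1, an isomerase of the isoprenoid pathway, was at 5.98 in the second line, 9.17 and 9.15 in the first, 9.56, 9.11 and 8.61 elsewhere and 8.44 and 8.95 in the parental cells (-3.12, SE 0.35, adjusted p = 0.0038). Hmgcs1, the synthase that precedes the rate-limiting reductase, was at 7.08 against 9.20 and 9.23 in the first line (-2.17, adjusted p = 0.0069), and Fasn, fatty acid synthase, was at 9.42 against 11.03 and 10.99 (-1.45, adjusted p = 0.013). The count of 9 was 3 without either culture of the first line or without bone marrow, 6 without lung, 2 when both arrays with a raised floor were left out and 0 without the filter, a limma fit in which 15 genes in all were called and 1366 had an unadjusted p under the threshold.

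**Figure D4:**
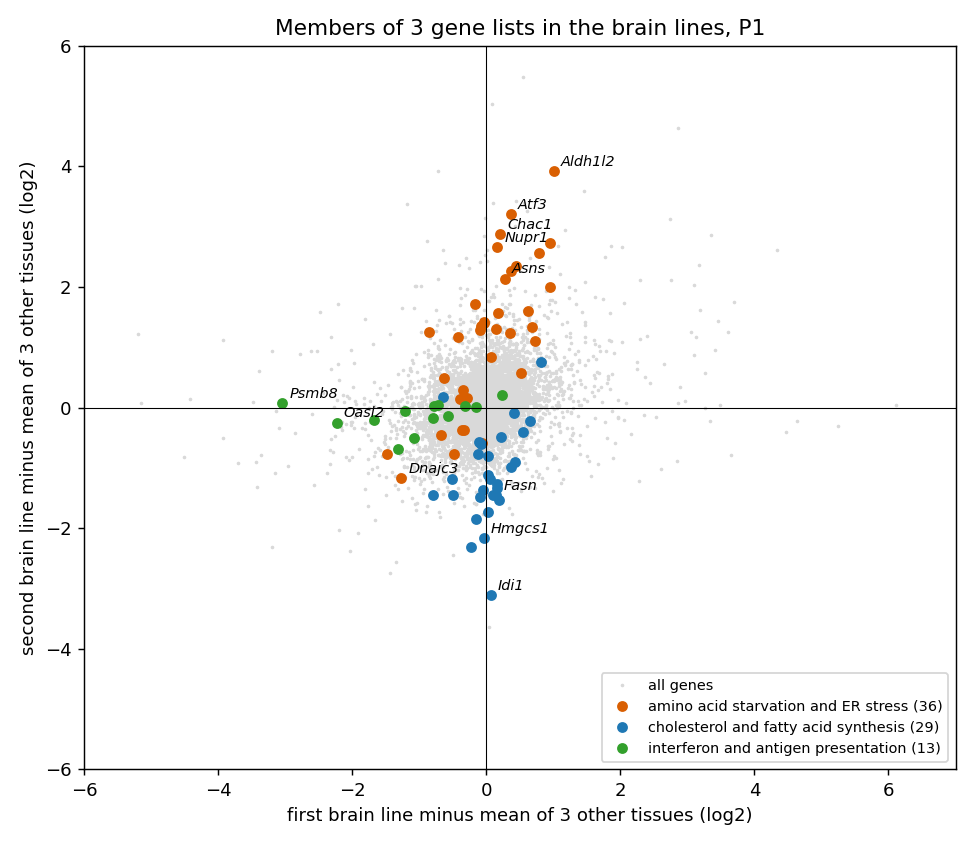
Difference of each brain line from the mean of the 3 other tissues at P1 (log2) for members of 3 gene lists, with 1 point for each gene, the first line on the horizontal and the second on the vertical axis, and all 7259 genes in grey. Both axes subtract the same 3 arrays. Stress genes such as Atf3 lie high and cholesterol genes such as Idi1 low on the vertical axis near 0 on the horizontal axis, and interferon genes such as Psmb8 lie left of 0.

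The direct comparison of both brain lines called 333 genes higher (4.59%) and 167 lower (2.3%) in the second line. Of the stress list 17 of 36 members were higher and 0 lower, and of the cholesterol list 0 were higher and 12 of 29 lower, while 3 of 13 interferon and antigen presentation genes were higher and 0 lower. Without the first and the second culture of the first line 191 and 166 genes were called, and without the filter 60.

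Neurobiological genes that the study listed as raised at brain P1 were chosen on the first line's course from the parental cells, so their rise in that line is no independent evidence. Of 51 kept members, 18 rose (35.3% against 4.53%) and 0 fell in the first line, and 6 rose (11.8% against 2.01% of all genes) and 0 fell in the second, whose array did not choose the list but shares the other tissues with the first comparison. The 6 were Kit, Chac1, Il23a, Itga2, Sema7a and Vegfa. The direct comparison of both lines subtracts the arrays that chose the list, so a lower second line was partly set by that choice. In it, 12 of the 51 were lower in the second line (against 2.3% of all genes) and 3 higher (5.88% against 4.59%). At P2 the second line stood above the mean of bone marrow and lung in 31 of them and below it in 20. Over all genes it stood above in 3344 and below in 3915. The 33 listed as lowered were chosen in the same way. Of them, 21 fell (63.6% against 7.05%) and 0 rose in the first line and 2 fell (6.06% against 0.854%) and 1 rose in the second. The member that rose was Sema7a, a semaphorin that stands on both lists of the study, at 8.46 in the second line, 7.01 and 6.68 in the first, 5.96, 5.98 and 5.38 elsewhere and 8.64 and 9.72 in the parental cells (2.69, adjusted p = 0.0093). Of the 33 listed as lowered, 10 (30.3% against 4.59%) were higher in the second line than in the first and 0 lower. The choice of the 33 likewise set part of this. At P2 the second line stood above the mean of bone marrow and lung in 21 of these and below it in 12, the opposite of the listed direction. Of 14 receptors, channels and synaptic genes, 6 rose (42.9% against 4.53% of all genes) and 1 fell (7.14% against 7.05%) in the first line and 1 rose and 1 fell in the second (7.14% each, against 2.01% and 0.854%). This list holds genes that the study named as raised in brain, such as Chrm3 and Prss12. Its rise in the first line is thus no independent evidence either. Chrm3, a muscarinic acetylcholine receptor, was at 7.56 and 7.51 in the first line, 6.38 in the second and 4.96, 5.58 and 5.17 elsewhere (2.30, adjusted p = 0.00028), and Prss12, a protease of synapses, was at 8.78 and 8.91 in the first line and 6.06 in the second (2.87, adjusted p = 0.00055). In both genes the second line and the other tissues were under the limit, so the sizes of these differences are uncertain. The 26 axon guidance genes share members such as Slit2 with the study's lists. Of them, 4 rose and 4 fell in the first line (15.4% each, against 4.53% and 7.05%) and 1 rose (3.85% against 2.01%) and 0 fell in the second. Of 38 genes that the study names in its text, 18 rose (47.4%) and 12 fell (31.6%) in the first line and 3 rose (7.89%) and 1 fell (2.63%) in the second, and these were chosen on the same arrays.

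For the groups that follow, the shares of all genes were 13% above and 11.3% below in brain, 4.53% up and 7.05% down in the first line, and 2.01% up and 0.854% down in the second. In the first line many groups had larger shares than these. Up were 25% of the detoxification genes, 22.2% of the chemokines and cytokines and 18.8% of the ion transporters. Down were 28% of the vessel and Notch genes, 21.9% of the actin genes and 20% of the matrix genes. Nearer to all genes were the glycolysis genes (5.56% up, 5.56% down), and 0% of the mitosis genes were up. The groups are small, and none was tested as a set. Of 60 genes of mitosis and DNA replication, 12 (20%) had all brain arrays below the others and 0 had them above, while 4 fell in the first line and 1 in the second. Of 33 ERK targets and immediate early genes, 11 (33.3%) lay above and 2 (6.06%) below, with 4 up and 3 down in the first line and 5 up and 0 down in the second. Of 20 subunits of the vacuolar proton pump, 6 (30%) lay above and 1 (5%) below, with 4 up and 2 down in the first line and 0 called in the second. Of 24 glutathione and detoxification genes 6 rose and 4 fell in the first line and 2 rose and 1 fell in the second. The first and second lines called 3 up and 1 down, and 0, of 16 ion transporters, 2 up and 1 down, and 0, of 18 tight junction genes, 6 up and 1 down, and 4 up, of 27 chemokines and cytokines, and 4 up and 6 down, and 3 up and 1 down, of 30 matrix genes. They called 4 up and 4 down, and 3 up, of 26 adhesion genes, 3 up and 7 down, and 0, of 32 actin cytoskeleton genes, 2 up and 7 down, and 2 up and 1 down, of 25 vessel and Notch genes, and 3 up, and 1 up, of 16 mammary lineage regulators. Of 5 milk genes the lines raised 2 and 1 and of 5 keratins 0 and 0. Of 18 glycolysis genes they called 1 up and 1 down, and 2 up, of 19 iron genes 2 up and 3 down, and 0, and of 17 p53 and cell death genes 1 up and 2 down, and 1 up.

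The second passage gives arrays that the comparison above did not use, though from the same lines: 2 cultures of the first brain line, 1 of the second, and 1 each from bone marrow and lung. Of the 945 genes above in brain at P1, 733 (77.6%) had a higher brain mean at P2, against 46.5% of all genes, and 188 (19.9%) had all brain arrays above both others, against 10.3% of all. Of the 820 below, 700 (85.4%) had a lower brain mean at P2, against 53.5% of all genes, and 248 (30.2%) had all brain arrays below both others, against 13.2% of all. For the second brain line alone the shares were near those of all genes, with 445 of 945 (47.1%) above against 46.1% of all genes and 479 of 820 (58.4%) below against 53.9%. Of the 15 and 11 genes with a gap of at least 2-fold, 13 and 11 had the same direction of the mean, 7 and 5 were separated again, and the second line alone had the direction in 10 and 8. Hsd11b1 was among those not separated at P2, with 8.76, 9.61 and 8.07 in brain, 5.97 in bone marrow and 9.28 in lung. Of the 16 stress genes that rose in the second line at P1, 9 stood above and 7 below the mean of bone marrow and lung at P2, with a median difference of 0.07 and a range of -0.66 to 0.98. Over the whole stress list the median difference at P2 was 0.90 in the first brain line and -0.05 in the second. Chac1 differed by 2.4 in the first line and 0.44 in the second at P2, and Asns by 2.2 and 0.60. Of the 9 cholesterol genes, 7 lay below and 2 above, with a median of -0.10. These differences at P2 were not tested.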

How the data were processed

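The data are 21 Affymetrix Mouse Gene 1.0 ST arrays, of which 6 were compared here. The authors summarised them with RMA (background correction, quantile normalisation, median polish) in the Affymetrix Expression Console, whose version is not given in the sources used here, and deposited 1 log2 value per probe set and array. RMA removes shifts that all genes share, so the differences are relative to the other genes of an array. No depth exists for arrays. No further scaling was applied.

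Of 34760 probe sets, 10428 (the 30% with the highest group mean, 7.22 or more in at least 1 group of P0 or P1) were kept. The platform annotation gave 21648 probe sets 1 gene symbol, 1313 several and 11799 none, 21553 gene identifiers were found in RefSeq GRCm38.p6, and only probe sets with 1 symbol were named. Where a gene had several kept probe sets, 1 of them stood for the gene, which gave 7259 genes.

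limma 3.58.1 in R 4.3.3 gave the tests, with Benjamini-Hochberg adjustment over the kept probe sets. Brain was compared with the other tissues over lines (the cultures of the first line averaged). Each brain line was compared in a fit of 16 group means of all 21 arrays, whose spread comes from the groups with 2 cultures, and lone arrays were assumed to vary like these. The p-values measure the spread between cultures, which may be technical. Comparisons of both brain lines share the 3 other arrays. The tests were first tested on simulated data. Genes were named by the 12 widest gaps in each direction, the 6 largest called differences of each line comparison and the leading members of each list. Any other gene is a list member or was chosen after its values were seen. The members, lists and rules were chosen with earlier results of these data known. Alternatives covered the filter, scaling, chromosome medians, probe sets per gene, variance estimation, fold threshold, design and each array left out. Figures used matplotlib 3.10.9 in Python 3.11.15.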

Additional observations from a re-analysis of the deposited data

Results flagged for a closer look

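Groups of 4 or more samples did not occur, so no array was tested as an outlier within its group. The second brain line differed from the first, each set against the same 3 tissues, in 500 genes by limma's test of the difference itself. Among the genes described above, Kcnma1 (-6.72, adjusted p = 0.0014), Gpx2 (-6.07), Tmem47 (-5.55), Slc6a14 (-4.43), Idi1 (-3.18), Hmgcs1 (-2.13), Kit (-1.71, adjusted p = 0.011) and Fasn (-1.60) were lower in the second line. Timp3 (6.42), Tns4 (5.24), Hspb8 (5.04), Ms4a6d (4.95), Ecrg4 (4.65), Psmb8 (3.11), Slc7a11 (2.97), Atf3 (2.85), Chac1 (2.68) and Nupr1 (2.50) were higher (differences on the log2 scale, adjusted p = 0.0055 or less except as given and in Fasn, 0.0057). The differences of Kit, Chac1, Hmgcs1, Fasn and Psmb8 did not pass without the filter on dim probe sets. Further genes described above passed limma's same test. Among these, Slit2 (-2.03, adjusted p = 0.025), Akr1c18 (-4.86, adjusted p = 0.0036) and Cers6 (-4.88, adjusted p = 0.00033) were lower in the second line. Slc7a7 (2.11, adjusted p = 0.01) and Slco1a5 (1.77, adjusted p = 0.039) were higher. Their calls under the alternatives are not given here.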

How the results depend on the processing

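Without the filter on dim probe sets, limma called 210 genes (111 up, 99 down) in the first brain line, 15 in the second and 60 between them, 5 interferon, 3 stress and 0 cholesterol genes, and 3082 genes were separated. The brightest 20% gave 5 interferon genes. Chromosome medians gave 522 genes in the first line (51.3% up against 39.1%) and 5 interferon genes, equal array medians 82.3% up in the second line against 70.2%, and a 2-fold threshold 421 in the first line. For brain as a whole, 1 gene was called with variance trend and robust estimation, 3 with 6 separate arrays and 465 with 16 group means. A gap of 2-fold left 26 separated genes. Without both arrays of highest floor, an alternative chosen after seeing the data, the counts were 139, 74 and 166, with 3 interferon, 10 stress, 2 cholesterol and 2890 separated genes. The second brain line alone kept the direction at P2 of 924 genes, against 1433 of 1765 for both lines.

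With 1 array left out, brain as a whole had 0 to 63 calls (63 without the second brain line), the first line 203 to 841, the second 100 to 188, their difference 166 to 484, separated genes 2214 to 3476, interferon genes 4 to 8, stress genes 12 to 16 and cholesterol genes 3 to 11. Leaving out arrays can only keep or raise the count of separated genes, so that count is no check of stability. The same holds without both arrays of highest floor. Of 1364 values of named genes under alternatives, 0 reversed. Many of these genes were named for large differences, and alternatives such as the variance trend and the fold threshold do not change the estimate. Reversals were therefore unlikely from the start, and their absence says little. Outside single left-out arrays 43 lost and 5 gained their call, and with 1 array left out 17 lost and 4 gained it. In the second line, Hsd11b1, Kit, Cadm1, Bcl2, Adamts5, Sh3rf2, Sh3bp1, Dnajc3, Chac1, Asns, Slc6a9, Idi1, Hmgcs1, Fasn, Sema7a and Tslp lost it without the filter. The cause was not tested. No paired analysis was possible because the tissues share fewer than 2 replicate numbers. The random block for cultures of a line could not be fitted. Lone arrays and dim values near the floor limit the precision.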
